A study of Mus musculus with 12 samples.

Results

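Promoter H3K4me1 peaks that were called in crypts and not in villi were examined in the mouse small intestine. A member was a peak of the crypts H3K4me1 list on an autosome that shared no base with a peak of the villi H3K4me1 list and lay within 1 kb of the start site of a protein-coding transcript in the GENCODE M21 annotation of GRCm38. This rule found 2639 members among the 16821 autosomal crypts H3K4me1 peaks near a coding start (15.7%) and among 169081 peaks of the 10 lists of the study. The members named 2597 start sites of 2470 genes, out of 20698 autosomal coding genes (11.9%). The members were chosen by the presence of H3K4me1 in crypts and its absence from the villi list, so both are given as a description only, whereas H3K4me3, H3K27me3, H3K9me3 and the genome sequence were not used by the rule.

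Crypts hold the stem and proliferating cells of the intestinal epithelium, and villi the differentiated cells that derive from them. Both compartments came from mouse small intestine, with no genetic or drug treatment in the labels, and the strain, the age and the number of pooled animals are not given in the sources used here. The methods describe villi that were scraped off with glass coverslips and crypts that were released with EDTA and mechanical force, so either preparation can hold other cells of the mucosa. Chromatin of each compartment was sequenced by ChIP-Rx, a ChIP-seq with added Drosophila chromatin for scaling, with 1 library per compartment and modification. Differences between crypts and villi could therefore not be set against replicates, and no p-value was computed. The lists give the position of each peak on mm10 and a score that was taken as the −log10 of the p-value of the call, with a lowest value of 10.0, but no read counts, so the depth is unknown. The ranges in brackets after a share are 95% Wilson intervals. They describe counting error alone and treat peaks as independent, which neighbouring peaks are not.

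H3K4me3 marks the nucleosomes around active and poised start sites, most of all at CpG-rich promoters, and is written by the SET1 and MLL complexes. H3K4me1 marks enhancers and is also found at the flanks of active promoters, where it borders the H3K4me3 domain on either side and is low at the start site itself. H3K27me3 is the mark of Polycomb repression, and together with H3K4me3 it defines bivalent promoters.

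The promoter sequence varied among members, and 1 member of each H3K4me3 class is shown to let the CpG content be read directly. They are examples and do not stand for their classes. Each line gives the 200 bases upstream of the start site of the gene on GRCm38, 5′ to 3′ on the strand of the gene, read from the reference genome where no annotated exon overlaps them, with each CpG in capitals. The stretch was chosen as the promoter and not as the member, and at Lamtor1, Atoh7 and Gm10647 it does not overlap the member. Lamtor1 had H3K4me3 in both compartments, Atoh7 in crypts only, Gm10647 in villi only and Ttc39a in neither.
Lamtor1, chr7:101905704-101905903, + strand: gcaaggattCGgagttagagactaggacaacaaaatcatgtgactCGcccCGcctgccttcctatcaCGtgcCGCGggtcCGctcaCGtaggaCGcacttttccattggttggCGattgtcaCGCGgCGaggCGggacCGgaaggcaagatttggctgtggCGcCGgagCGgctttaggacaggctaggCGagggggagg
Atoh7, chr10:63099451-63099650, + strand: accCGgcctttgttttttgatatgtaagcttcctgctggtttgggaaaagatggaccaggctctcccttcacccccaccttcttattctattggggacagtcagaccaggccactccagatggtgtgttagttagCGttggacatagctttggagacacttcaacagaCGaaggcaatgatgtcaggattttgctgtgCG
Gm10647, chr9:66796839-66797038, + strand: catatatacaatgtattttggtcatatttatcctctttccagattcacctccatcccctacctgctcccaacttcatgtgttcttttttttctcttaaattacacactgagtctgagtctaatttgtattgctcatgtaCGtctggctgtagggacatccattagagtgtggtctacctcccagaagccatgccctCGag
Ttc39a, chr4:109420742-109420941, + strand: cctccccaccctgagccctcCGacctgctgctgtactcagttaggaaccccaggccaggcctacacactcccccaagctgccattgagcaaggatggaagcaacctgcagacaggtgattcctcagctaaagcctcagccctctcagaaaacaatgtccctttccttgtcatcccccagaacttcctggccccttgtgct
The Lamtor1 stretch held 19 CpG at a GC content of 61.0%, against 4 at 49.0% for Atoh7, 2 at 42.0% for Gm10647 and 1 at 57.5% for Ttc39a.

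The members were narrower and weaker than shared peaks, as were the other crypts peaks without a counterpart. Their median width was 679 bp (quartiles 511.5 and 959.5), against 1309 bp for the 14182 crypts promoter peaks that overlapped a villi peak, referred to here as shared. Their median score was 14.5 (quartiles 11.99 and 18.5) against 21.6 for shared peaks, and 81.6% of the members scored under 20. The share of crypts promoter peaks without a villi counterpart was 39.3% at scores of 10 to 12, 28.3% at 12 to 15, 18.8% at 15 to 20, 8.39% at 20 to 30 and 1.69% at 30 to 50. At a score of 50 or more it was 0 of 505 peaks, with an upper limit of 0.755% by the interval. Most members thus lay near the calling threshold of the list. For comparison, 6871 of 37112 crypts peaks further from a coding start (18.5%) and 1680 of 15594 villi promoter peaks (10.8%) had no counterpart in the other compartment. Their median widths were 830 bp and 706 bp respectively, and the median score of the distal crypts peaks was 13.4. The villi-only median of 13.3 came from another list, whose scores depend on its own depth.

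**Figure D1:**
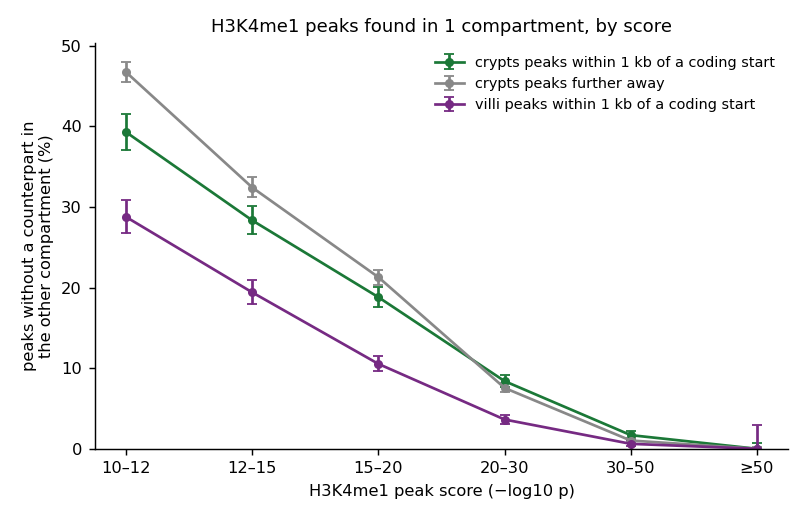
Percentage of H3K4me1 peaks without a counterpart in the other compartment (y axis) by band of peak score (x axis, −log10 p), for crypts peaks near a coding start, crypts peaks further away and villi peaks near a coding start. Bars are 95% Wilson intervals, and the crypts promoter line falls from 39.3% in the lowest band to 0 of 505 peaks in the highest.

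At the limits of the rule, the members furthest from a start site were at AI854703 (1000 bp), Csnk1g2 and Rfk (998 bp each). The crypts-only peaks just outside were at Flt3l (1001 bp), Rpf1 (1003 bp) and Smad1 (1005 bp). The members closest to a villi H3K4me1 peak were at Wdfy1 (16 bp away), Mrpl52 (35 bp) and Slc6a4 (97 bp), and the smallest overlaps that counted as shared were at Rnf141 (47 bp), 4930430F08Rik (54 bp) and Parva (61 bp).

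The strongest, with a score of 47.2, lay at chr7:101904899-101905684, 220 bp upstream of the start of Lamtor1 and in an intron of an annotated coding gene. Lamtor1 encodes a subunit of the lysosomal Ragulator complex that recruits mTORC1. The next lay at chr16:32607402-32608499, 421 bp upstream of Tfrc, the transferrin receptor of cellular iron uptake, with a score of 42.6. Dgcr2 followed with 41.6, the zinc finger gene Zfp438 with 41.3, the sorting nexin gene Snx21 with 40.5 and Mat2a, whose enzyme makes S-adenosylmethionine, the donor of histone methylation, with 39.9. Cib1, the tyrosine kinase gene Frk and the stress granule gene G3bp1 were also among the highest 10, with scores from 38.2 down to 36.4. All of these genes had an H3K4me3 peak at the start site in both compartments. Its width was 4064 bp in crypts and 2540 bp in villi at Tfrc, a log2 ratio of villi over crypts of -0.68. It was 2087 bp and 1675 bp at Snx21, 2273 bp and 1936 bp at Dgcr2, and 3082 bp and 2650 bp at Mat2a. Cib1 went the other way, with 4302 bp in crypts and 4784 bp in villi, and Frk was close to even at 2835 bp and 2878 bp.

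**Figure D2:**
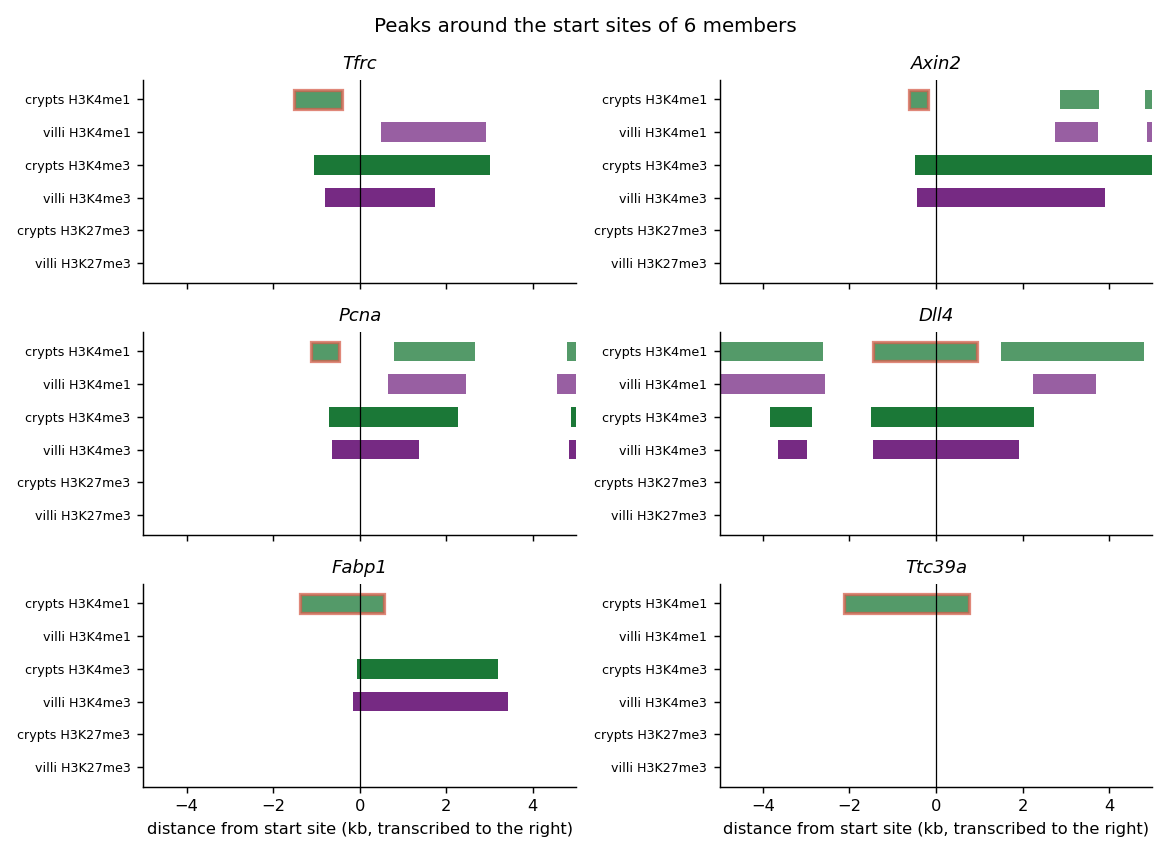
Called peaks of H3K4me1, H3K4me3 and H3K27me3 in crypts (green) and villi (purple) within 5 kb of the start site of 6 genes (x axis, distance in kb, transcription to the right), with members outlined in red. At Tfrc, Axin2 and Pcna the member lies upstream of the start and the H3K4me3 bar is shorter in villi, at Fabp1 it is longer in villi, and Ttc39a has H3K4me1 in crypts and none of the other peaks.

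Members lay upstream of the start site more often than shared peaks. The centre was upstream for 57.4% of the members (55.5 to 59.2%), for 38.9% of shared peaks (38.1 to 39.7%) and for 47.1% of the 1680 villi-only promoter peaks (44.8 to 49.5%). The median position of the centre was -287 bp for members, negative values being upstream, and 354 bp for shared peaks. Only 17.5% of the members (16.1 to 19.04%) covered the start base, against 33.4% of both shared and villi-only peaks. Accordingly 39.8% of the members lay outside coding genes, 25.1% in an intron without touching an exon and 35.1% on an exon of a coding gene, whereas 58.4% of shared peaks touched an exon. The upstream share of the members was between 50.1% and 64.6% in the score bands, and between 36.4% and 42.2% for shared peaks of the same bands, so in each band that held members it was higher for members. Villi-only peaks fell from 56.2% at scores of 10 to 12 (52.1 to 60.3%), close to the 59.4% of members (55.7 to 63.0%), to 26.3% at 20 to 30.

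Nearly all members sat at start sites that carried H3K4me3 in both compartments. An H3K4me3 peak was within 1 kb of the start site in both crypts and villi for 2361 members (89.5%, 88.2 to 90.6%), in crypts only for 25, in villi only for 3 and in neither for 250 (9.47%, 8.41 to 10.7%). The share with H3K4me3 in both was 85.7% for shared peaks (85.1 to 86.3%) and 66.7% for villi-only peaks (64.4 to 68.9%), and 53.9% over all 52063 autosomal coding start sites. It was 80.1% for members with scores of 10 to 12 and 94.7% for those of 20 to 30, against 77.1% and 89.0% for shared peaks of the same bands. With a villi peak within 1 kb counted as a counterpart, the share was 85.5% for members and 86.4% for shared peaks. Start sites whose crypts H3K4me1 peak had no villi counterpart thus rarely differed in the presence of an H3K4me3 call.

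The members with H3K4me3 in both compartments bordered and partly overlapped the H3K4me3 peak. Of these 2361 members, 96.4% touched the crypts H3K4me3 peak, and 10.7% lay wholly inside it. The same shares were 98.1% and 4.11% for shared peaks, and 93.75% and 19.6% for villi-only peaks. In the median, 68.8% of the bases of a member were under the crypts H3K4me3 peak and 58.4% under the villi peak of the same start site. For shared peaks the corresponding medians were 59.3% and 55.7%, and for villi-only peaks 71.1% and 72.2%. The H3K4me3 peaks concerned were strong ones, with a median rank at percentile 71.5 of the crypts H3K4me3 list and 69.0 of the villi list by score, against 64.7 and 65.9 at shared peaks.

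The H3K4me3 peak at the start site of members was slightly narrower in villi. Over 2218 distinct pairs of peaks the median width was 1973.5 bp in crypts and 1834 bp in villi, with a median log2 ratio of -0.07 (quartiles -0.18 and 0.03). The villi peak was the narrower in 1541 pairs, or 69.5% (67.5 to 71.4%). Over all 11422 pairs at coding starts this share was 57.7%, with a median log2 ratio of -0.03, so a narrower call in villi was common across the genome. It was 56.8% at the start sites of shared peaks (55.8 to 57.8%) and 53.7% at those of villi-only peaks (50.8 to 56.7%), with median log2 ratios of -0.03 and -0.01. The interval of the members lay above the other intervals, although the difference in the median was small. All pairs include those of the members, and 1 pair can enter several sets, so these intervals are not of separate groups. Large changes were not more frequent, since 90 pairs of members (4.06%) were narrower in villi by over 1.5-fold, beside 4.3% of all pairs, and 47 (2.12%) were wider by over 1.5-fold, beside 3.76%. The villi H3K4me3 list as a whole had a lower median score than the crypts list (126 against 173) and a lower median width (1498 bp against 1584 bp). The authors of the data report cleavage of H3 tails in villi, with lower ChIP-seq intensity of H3K4me1 and H3K4me3 there. The part of this cleavage and of library depth in these widths was not tested.

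**Figure D3:**
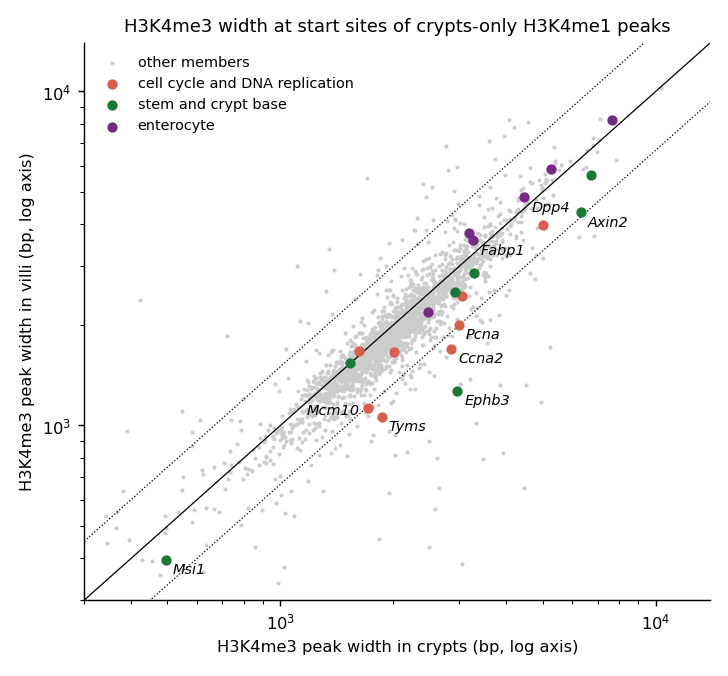
Width in bp of the H3K4me3 peak in crypts (x axis, log scale) and in villi (y axis, log scale) at start sites of members, 1 point per pair of peaks, with genes of 3 lists coloured, the line of equal width drawn solid and 1.5-fold limits dotted. The 2218 pairs follow the line of equal width with 69.5% below it, most genes of the cell cycle and stem lists lie below it, and 5 of the 6 enterocyte genes lie above it.

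In villi each edge of the H3K4me3 peak lay further in at most members. The edge that faced the member lay a median of 48 bp closer to the peak body (quartiles -122 and 10 bp, negative values for an edge further in), and the opposite edge a median of 30 bp closer (quartiles -124 and 46 bp). The facing edge was further out in villi for only 28.6% of 2361 members (26.8 to 30.5%), and the opposite edge for 38.3% (36.3 to 40.3%). For shared peaks the facing edge was further out in villi in 43.4% (42.5 to 44.3%), with a median of -20 bp. For villi-only peaks this share was 52.1% (49.2 to 55.1%), with a median of 7 bp. For each of these sets the opposite edge was further out in 44.7% and 43.2%. Members and other peaks can flank the same H3K4me3 peak, so the sets share edges and their intervals are not those of separate groups. Of all members, 51.7% had 2 or more crypts H3K4me1 peaks within 1 kb of the start. The difference in the facing edge was also present at matched scores. The facing edge was further out for 31.6%, 29.7%, 26.7%, 26.6% and 26.2% of the members from the lowest band to that of 30 to 50, and for between 41.2% and 45.8% of shared peaks in the same bands. For members downstream of the start the median shift of the facing edge was -64.5 bp, against -22 bp for the opposite edge. For members upstream these medians were -40 bp and -44 bp, so upstream members, the majority, did not share the contrast between edges. In the score band of 10 to 12 the medians were -37.5 bp and -39 bp. Member by member, the facing edge receded more than the opposite edge in 54.5% (52.5 to 56.5%), against 51.8% for shared peaks (50.9 to 52.6%).

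**Figure D4:**
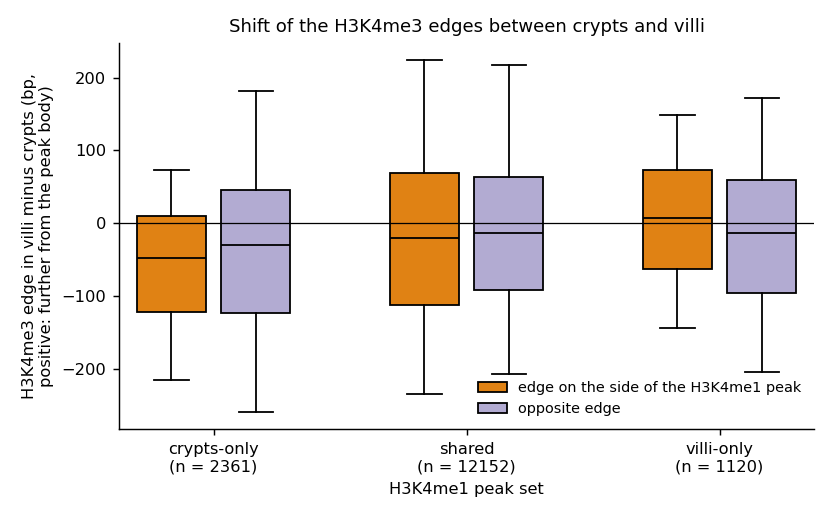
Shift in bp of the H3K4me3 edge in villi relative to crypts (y axis, negative when the villi edge lies further in) for crypts-only, shared and villi-only promoter H3K4me1 peaks with H3K4me3 in both compartments, with the edge facing the H3K4me1 peak in orange and the opposite edge in violet. Boxes show median and quartiles and whiskers the 10th and 90th percentiles, and the facing edge of members has a median of -48 bp, that of villi-only peaks 7 bp.

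H3K4me1 around the same start sites was found on both sides in most cases in crypts. Among 2322 start sites of members with H3K4me3 in both compartments, crypts had H3K4me1 between 200 and 1500 bp on both sides in 73.0%, upstream only in 11.4% and downstream only in 15.7%. In villi, both flanks were marked in 1.38%, the upstream flank alone in 18.6%, the downstream flank alone in 42.9% and no flank in 37.1%. The rule removed a villi peak from the side of the member, so the near absence of sites with both flanks in villi was fixed by the choice of members and is no finding. The other villi shares were shaped by the same choice, with most members upstream, and are a description only. At start sites of shared peaks, both flanks were marked in 73.7% in crypts and 66.5% in villi. Over all members, 45.1% still had a villi H3K4me1 peak within 1 kb of the same start site (43.2 to 47.0%), or 22.002% where a villi peak within 1 kb of the member already counted as its counterpart. The median distance from a member to the nearest villi H3K4me1 peak was 1342 bp. For 20.5% of the members (19.003 to 22.1%) no villi H3K4me1 peak lay within 10 kb.

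**Figure D5:**
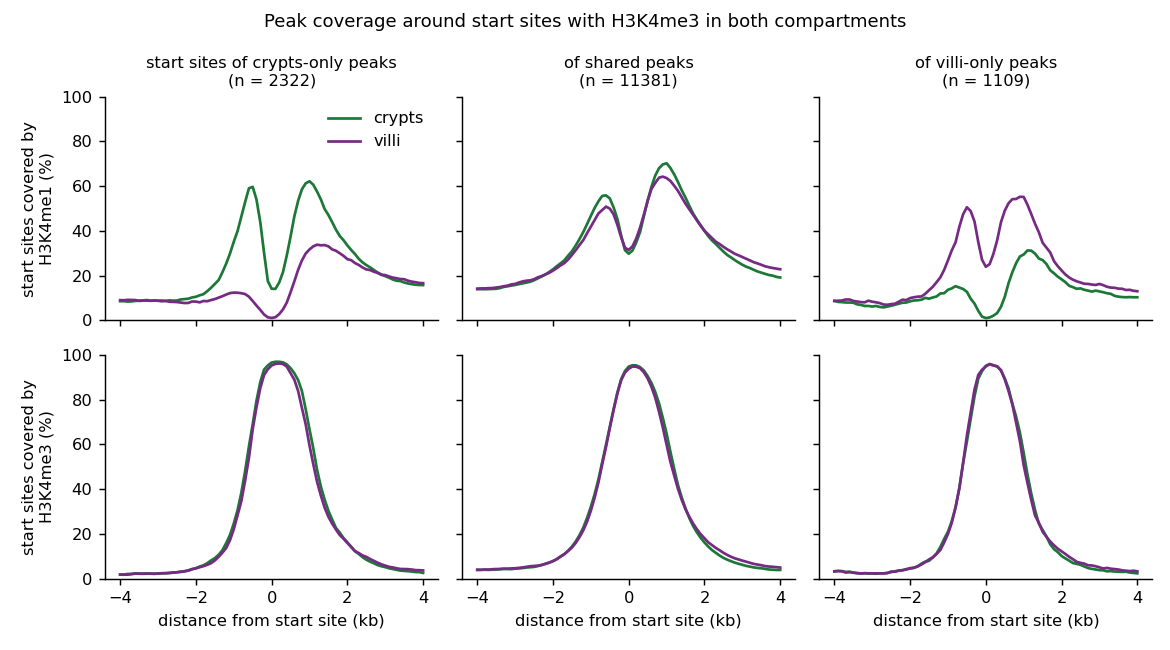
Percentage of start sites covered by a called H3K4me1 peak (upper row) or H3K4me3 peak (lower row) by distance from the start site (x axis, kb, transcription to the right), in crypts (green) and villi (purple), for start sites of crypts-only, shared and villi-only peaks with H3K4me3 in both compartments. At members, crypts H3K4me1 covers at most 59.7% of the sites upstream (at 500 bp) and 62.2% downstream (at 1000 bp). Villi H3K4me1 covers at most 12.4% and 33.9%, a split shaped by the choice of members. The H3K4me3 curves meet near the start base, with 96.6% in crypts and 95.3% in villi. At 1000 bp downstream the H3K4me3 curve is lower in villi, with 66.8% in crypts and 59.6% in villi.

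At 6 of 7 stem genes with a member H3K4me3 was narrower in villi, with the widest crypts peak of each gene. The stem and crypt base list had a member at 7 of its 30 genes (23.3%), beside the 11.9% of all genes, and at 7 of its 28 genes with H3K4me3 in crypts (25.0%), beside 18.9%. These were Axin2, Rnf43 and Znrf3, which are feedback inhibitors and targets of Wnt signalling, the Wnt co-receptor gene Lrp6, the ephrin receptor gene Ephb3, which positions cells along the crypt, the RNA-binding protein gene Msi1 and the Polycomb gene Bmi1. At Axin2 the member was 443 bp wide with a score of 11.6, and the H3K4me3 peak measured 6310 bp in crypts and 4342 bp in villi. At Ephb3 H3K4me3 fell from 2956 bp to 1270 bp, a log2 ratio of -1.22. It was 6727 bp and 5607 bp at Rnf43, 2916 bp and 2504 bp at Znrf3, 3282 bp and 2865 bp at Lrp6, and 1531 bp and 1536 bp at Bmi1. At Msi1 the nearest peaks of 495 bp and 396 bp were different peaks that did not overlap, the only such pair among the members, while H3K4me3 covered 2249 bp of the 5 kb on either side of the start in crypts and 396 bp in villi.

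The cell cycle and DNA replication list had a member at 8 of its 52 genes (15.4%). All 52 had H3K4me3 in crypts, and the share over all such genes was 18.9%, so the list held members no more often than other genes. At 7 of the 8 H3K4me3 was narrower in villi. Tyms, which encodes thymidylate synthase, measured 1861 bp in crypts and 1061 bp in villi, a log2 ratio of -0.81, and the shift of its edge facing the member was -752 bp. Ccna2, encoding cyclin A, measured 2843 bp and 1700 bp (-0.74), the helicase factor gene Mcm10 1707 bp and 1126 bp (-0.60), and Pcna, the sliding clamp of DNA polymerases, 2986 bp and 2004 bp (-0.58). The others were Cdk6 with 5020 bp and 3979 bp, Mcm7 with 3050 bp and 2449 bp, and E2f1 with 2005 bp and 1658 bp. Cdc25b, a phosphatase that activates cyclin-dependent kinases, was the exception, with 1624 bp in crypts and 1676 bp in villi.

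The narrower H3K4me3 in villi was also found at genes of these lists without a member. With 1 pair per gene, taken at the start with the widest crypts peak, H3K4me3 was narrower in villi at 7 of 8 cell cycle genes with a member and at 41 of 44 without one, and at 6 of 7 stem genes with a member and 18 of 18 without one. Over all genes the shares were 69.0% of 2288 genes with a member and 56.4% of 9719 without one. The median log2 ratio was -0.46 for the cell cycle genes with a member and -0.41 for those without, -0.26 and -0.42 for the stem genes, and -0.07 and -0.03 over all genes. Past 1.5-fold, the counts were 3 of 8 and 11 of 44 cell cycle genes, 2 of 7 and 8 of 18 stem genes, and 92 of 2288 and 350 of 9719 of all genes.

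At 5 of the 6 enterocyte genes with a member, H3K4me3 at its start site was wider in villi, at none by over 1.5-fold. This list, of differentiated absorptive cells, had a member at 6 of 38 genes (15.8%), beside 11.9% of all genes, and at 6 of its 36 genes with H3K4me3 in crypts (16.7%), beside 18.9% of all such genes. The H3K4me3 peak at the start site of the member measured 3264 bp in crypts and 3582 bp in villi at Fabp1, the liver-type fatty acid binding protein. The values were 4466 bp and 4822 bp at the brush border peptidase gene Dpp4, 3185 bp and 3769 bp at Ace, 5250 bp and 5860 bp at the amino acid transporter gene Slc7a7, and 7636 bp and 8226 bp at the transcription factor gene Maf. At Mttp, which loads lipid onto apolipoprotein B, it was narrower in villi, with 2474 bp and 2183 bp. With 1 pair per gene, taken at the start with the widest crypts peak, H3K4me3 was wider in villi at 6 of 6 genes with a member and at 28 of 30 without one, of which 5 were wider by over 1.5-fold. Over all genes counted in this way, H3K4me3 was wider in villi at 706 of 2288 with a member and at 4927 of 12007 in total. A crypts-only H3K4me1 peak was therefore found at the promoters of genes whose H3K4me3 was wider in either compartment.

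Among all genes 11.9% had a member, and among those with H3K4me3 in crypts 18.9%. With this restriction it was 25.9% of the Notch list (7 of 27), 21.4% of the Wnt list (9 of 42) and 11.8% of the BMP and TGF-beta list (4 of 34). The Notch list had a member at 8 of 31 genes, among them the ligand genes Dll1, Dll3, Dll4 and Jag1, the receptor gene Notch1 and the protease genes Adam10 and Adam17, which cleave the receptor. The widest of these members, with 2398 bp and a score of 31.0, covered the start of Dll4, where H3K4me3 measured 3762 bp in crypts and 3375 bp in villi. At Notch1 it was 2973 bp and 2700 bp, at Jag1 3905 bp and 3770 bp and at Dll1 4973 bp and 5064 bp, while Dll3 had no H3K4me3 and H3K27me3 in both compartments. The Wnt list had a member at 9 of 61 genes, which besides those of the stem list were Apc, the receptor genes Fzd6 and Lgr4 and the transcription factor genes Tcf7 and Tcf7l2. H3K4me3 was 5000 bp and 4786 bp at Lgr4 and 2408 bp and 2309 bp at Apc. The BMP and TGF-beta list had a member at 4 of 40 genes (Bmp2, Bmpr2, Smad1 and Tgfbr1). H3K4me3 was 2902 bp in crypts and 3359 bp in villi at the ligand gene Bmp2, which held 2 members, and 2992 bp and 3333 bp at the receptor gene Bmpr2.

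Among 20 autosomal genes of H3K4 methyltransferases and demethylases, all with H3K4me3 in crypts, 6 had a member (30%), beside 18.9% of all genes with H3K4me3 in crypts. These were Setd1a, a catalytic subunit of the SET1 complexes, Cxxc1, Ash2l and Dpy30, which are subunits of these complexes, Paxip1, a partner of MLL3 and MLL4, and the demethylase gene Kdm5b. Their members scored between 10.3 and 15.2. H3K4me3 measured 2788 bp in crypts and 2131 bp in villi at Paxip1, 2217 bp and 2015 bp at Kdm5b, 2386 bp and 2287 bp at Setd1a, and 2342 bp and 2537 bp at Ash2l. The intestinal identity factors, all with H3K4me3 in crypts, had a member at 3 of 23 genes (13.0%), beside the same 18.9%. Onecut2 and Tcf7l2 were among these. The Tcf7l2 member, with a score of 10.3, lay at a start without H3K4me3 in either compartment.

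Among the lists of other cell types, there was a member at 2 of 16 Paneth cell genes (Dll4, which is also in the Notch list, and Egf), at 1 of 18 goblet genes (Ern2), 1 of 20 tuft genes (Avil), 1 of 24 enteroendocrine genes (Tac1), 1 of 27 mesenchymal genes (Myh11), 1 of 14 myeloid genes (Cx3cr1) and 1 of 12 genes of enteric neurons and glia (Elavl4). None was found at 30 lymphocyte and 14 endothelial genes. These shares stood from 0 to 12.5% for Paneth genes, beside 11.9% of all genes, and except in the goblet list most genes had no H3K4me3 in crypts. Among those with it, 2 of 4 Paneth genes and 1 of 2 genes of enteric neurons and glia had a member, but 1 of 12 goblet genes and none of 5 enteroendocrine, 5 tuft, 7 mesenchymal, 5 lymphocyte, 2 myeloid and 2 endothelial genes, beside 18.9% of all genes with H3K4me3 in crypts. As a check of the labels, H3K4me3 was present in crypts and villi at 28 and 26 of 30 stem genes, 36 and 36 of 38 enterocyte genes, 4 and 5 of 16 Paneth genes, 12 and 11 of 18 goblet genes, 5 and 7 of 24 enteroendocrine genes, 5 and 5 of 20 tuft genes, 2 and 3 of 14 myeloid genes, 2 and 3 of 14 endothelial genes, 2 and 2 of 12 genes of enteric neurons and glia, 7 and 9 of 27 mesenchymal genes, and 5 and 14 of 30 lymphocyte genes. Paneth cells sit at the crypt base, and their list was not higher in crypts. The lymphocyte count differed between the preparations, and the part of cell composition in the results was not tested. Fewer cells of a type with H3K4me1 and less H3K4me1 per cell cannot be told apart in these samples.

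The pairs with the most extreme width ratios were in part split calls. The lowest log2 ratios were at Tlk1 (-2.98, 3045 bp in crypts and 385 bp in villi), Lpgat1 (-2.78), Ybx3 (-2.52), Spen (-2.25), Mier3 (-2.20) and Atxn2 (-2.13). Within 5 kb of the start, however, H3K4me3 covered 3045 bp in crypts and 2200 bp in villi at Tlk1, 2487 bp and 1637 bp at Ybx3, 3929 bp and 3486 bp at Spen, and 4448 bp and 4599 bp at Lpgat1, where the villi peak at the start was not the only villi H3K4me3 peak in this window. The highest ratios were at the homeobox gene Meis2 (2.49), Skil (1.70), Slfn2 (1.44), Bend4 (1.36), Ticam1 (1.33) and Mpnd (1.32). At Meis2 H3K4me3 covered 1874 bp within 5 kb in crypts and 3155 bp in villi, and at Skil, which encodes an inhibitor of SMAD signalling, 2801 bp and 6559 bp. The same values were 1944 bp and 3004 bp at Slfn2, 719 bp and 1849 bp at Bend4, and 1350 bp and 5495 bp at Ticam1. At Mpnd they were closer, with 5781 bp and 6481 bp, against peaks of 2755 bp and 6882 bp. Over all pairs of members, the covered bases within 5 kb were fewer in villi in 69.2% (67.3 to 71.1%), close to the share by peak width.

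The 250 members without H3K4me3 at the start site had a median score of 11.99 and a median width of 804.5 bp, against 14.7 and 668 bp for members with H3K4me3 in both compartments, and 54.0% of them (47.8 to 60.1%) covered the start base, against 13.2%. This contrast was not particular to members, since without H3K4me3 65.1% of shared and 54.0% of villi-only peaks covered the start base, against 27.5% and 22.9% with H3K4me3 in both, and these peaks were wider too. A villi H3K4me1 peak lay within 1 kb of the start site for only 16 of the 250 (3.98 to 10.1%), against 49.7%. Wider members that cover the start base bar villi peaks from more of this window, so the contrast was in part fixed by the rule. The strongest were at Ttc39a with a score of 35.1, the myosin gene Myo18a with 33.9, Cd177, a surface glycoprotein of neutrophils, with 33.1, Dgcr6 with 32.8, Arhgef28 with 31.6 and the keratin gene Krt39 with 30.5. No H3K4me3 was called within 5 kb of these 6 starts in either compartment.

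H3K4me3 in crypts and not in villi was found at the start site of 25 members (0.947%), near the 1.13% of all coding starts and the 1.68% of shared peaks. The strongest were at 1700066B19Rik (score 24.0), Atoh7 (18.8), the DNA repair gene Mgmt (18.6), the semaphorin receptor gene Plxna4 (16.6), 5330417C22Rik (16.2) and Cfap70 (16.0), and their crypts H3K4me3 peaks were between 388 bp and 1226 bp wide, with the lower value at Mgmt and the higher at 5330417C22Rik. At 1700066B19Rik villi H3K4me3 beyond the 1 kb limit covered 1037 bp within 5 kb of the start. The goblet gene Ern2 belonged to this class, with 602 bp in crypts. The 3 members with H3K4me3 in villi only were at Lama3, a laminin chain of the epithelial basement membrane, where the villi peak was 2525 bp wide, at Gm10647 with 1508 bp, where crypts H3K4me3 beyond the 1 kb limit covered 1299 bp within 5 kb of the start, and at the neuronal RNA-binding protein gene Elavl2 with 466 bp.

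An H3K27me3 peak lay within 1 kb of the start site in either compartment for 191 members (7.24%, 6.31 to 8.29%), in both for 120, in villi only for 50 and in crypts only for 21. More sites in villi only were also found at shared peaks (349 and 101), and the villi H3K27me3 list held 13797 peaks against 7611 in crypts. The share was 14.6% for shared peaks (14.0 to 15.1%) and 25.4% for villi-only peaks (23.4 to 27.6%). It was 4.96% for members with H3K4me3 in both compartments and 26.4% (21.3 to 32.2%) for those with H3K4me3 in neither. The same classes of shared peaks had 11.8% and 26.2%, so without H3K4me3 the shares of members and shared peaks were within each other's intervals. In each band of score that held members the share over all classes was lower for members than for shared peaks. With H3K27me3 in villi only, the strongest members were at Dact3 (1315 bp of H3K27me3), the muscarinic receptor gene Chrm3 (1400 bp), Olfr323, the keratin gene Krt4, Dzank1 and the protocadherin gene Pcdh18. At Pcdh18 H3K4me3 measured 1185 bp in crypts and 684 bp in villi. With H3K27me3 in crypts only, they were at Paqr8 (987 bp), Pdgfc (424 bp), the nuclear receptor gene Nr4a2 (982 bp), the adenosine receptor gene Adora2b (848 bp), Ppm1l (1615 bp) and the Wnt inhibitor gene Apcdd1 (851 bp). At Adora2b H3K4me3 measured 2318 bp in crypts and 3489 bp in villi. An H3K9me3 peak was found at 2 members (0.0758%), Crlf2 and Zfp872, beside 0.0776% of shared peaks. An H3K9me2 peak was found at Gpatch2l, but the H3K9me2 lists held only 6 peaks in crypts and 3 in villi. Each of these peaks at members was in crypts only.

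Start sites of members with H3K4me3 in both compartments were CpG-rich in a share close to that of all start sites of this kind. A start was called CpG-rich when the 300 bases from 250 upstream to 50 downstream had a GC content of at least 50% and a ratio of observed to expected CpG of at least 0.6. This held for 67.1% of the start sites of members (65.3 to 68.9%), for 62.3% of those of shared peaks and for 43.6% of all coding starts. With H3K4me3 in both compartments it held for 73.2% (71.3 to 74.9%) at members and for 72.4% (71.9 to 72.9%) over all coding starts of that class, and with H3K4me3 in neither for 13.7% (9.98 to 18.5%) and 8.61%. With H3K4me3 in crypts only it held for 9 of 24 start sites of members (37.5%, 21.2 to 57.3%), among them those of Mgmt, Plxna4 and 5330417C22Rik. At shared peaks of this class it held for 26.6% of 233 start sites (21.3 to 32.6%). The members themselves were poorer in GC than their start sites, with a median of 45.3% (quartiles 41.4 and 49.97%), against 48.4% for shared and 50.9% for villi-only peaks.

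Short motifs were searched as exact letters on both strands in the same 300 bases, where matches of different motifs may overlap. The GC box GGGCGG was in 60.7% of the start windows of members and 43.5% of all coding starts, and in 65.03% and 66.1% of those with H3K4me3 in both compartments. The other motifs are also given for start sites with H3K4me3 in both compartments, first for members and then for all coding starts. The CCAAT box was in 38.4% and 35.4%, and TATAAA in 5.77% and 5.67%. The letters AGATAA, as bound by GATA factors, were in 5.47% and 5.44%, CTTTGAT, as bound by TCF factors, in 1.81% and 2.20%, and TGACTCA, as bound by AP-1, in 2.76% and 3.11%. GAGGAAGT, as bound by ETS factors, was in 2.97% and 2.61%, and CAAAGTCCA, as bound by HNF4, in 0.474% and 0.420%. The letters TTTATNG, as bound by CDX factors, were in 7.32% and 6.09%, but without regard to H3K4me3 in 7.70% of the windows of members and 9.07% of all coding starts. TATAAA and AGATAA differed more without regard to H3K4me3, with 6.55% and 11.3% for TATAAA and 6.08% and 9.62% for AGATAA.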

How the data were processed

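ChIP-Rx peak lists of 10 libraries were used, 1 per compartment (crypts, villi) and modification (H3K4me1, H3K4me3, H3K27me3, H3K9me3, H3K9me2). Paired reads had been mapped by the authors against the mouse (mm10) and fly (dm6) genomes using bowtie 1.1.2, duplicates and reads found in both genomes were discarded, and MACS2 2.1.1 was run for peaks (versions from the submitters' processing notes, which also list deepTools 3.1). The values the authors deposited are 1 score per peak, taken as −log10 of the p-value because the lowest is 10.0, although a q-value is not excluded. The scores are not scaled by the spike-in, and depend on depth, so scores of different lists are given side by side but not ranked against each other. The inputs were not analysed here.

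Peaks were joined by a 1 bp overlap and assigned to the nearest start of a coding transcript (GENCODE M21, GRCm38) within 1 kb. The H3K4me3 peak at a start was the nearest within 1 kb in each compartment, and each pair of peaks was counted once for widths. Sequence was read from GRCm38.p6. Python 3.11.15, pandas 2.3.3, NumPy 2.4.6, SciPy 1.17.1 and Matplotlib 3.10.9 were used, and the join was tested on simulated data. Since each group was a single library, nothing was tested, and counts, medians and 95% Wilson intervals are given instead. The members and gene lists were chosen with earlier results of these data known. Named genes were the 10 members with the highest score, up to 6 with the highest score in each H3K4me3 class, the 6 highest and 6 lowest H3K4me3 width ratios, members on listed genes, up to 6 with H3K27me3 in 1 compartment only, and those nearest to the limits. Some genes that this rule names are not reported here. The H3K9me3 and H3K9me2 members were named after their values were seen. Alternatives varied the overlap, the start window and start sites, the score threshold, merging, chromosome X, and the H3K4me3, fold and CpG definitions. The score bands, the flanks and the H3K4me3 widths with 1 pair per gene were added after seeing the data.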

Additional observations from a re-analysis of the deposited data

How the results depend on the processing

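The number of members depended on the definition of a counterpart and on the score. It was 4723 when both peaks had to overlap by 50%, 1718 when a villi peak within 1 kb counted, 1703 with peaks under 1 kb apart merged and 500 with the top 50% of the crypts list, against 2639. The share with H3K4me3 in both compartments (89.5%) was 87.7% with reciprocal overlap, 85.5% with the 1 kb counterpart, 94.2% with the top 50% of the crypts list, 90.9% with the top 50% of both lists, 86.7% with a 2 kb window, 93.0% with the most upstream start, 85.5% after merging and 84.7% where the peak had to cover the start base. The share of narrower H3K4me3 in villi (69.5%) was 62.0% with reciprocal overlap and 65.3% with the top 50% of both lists, and in each alternative it was higher than for shared peaks, whereas with the 1 kb counterpart H3K4me3 in both was more frequent at shared peaks (86.4%). Past 2-fold, 1.26% of the pairs were narrower and 0.631% wider. The facing edge was further out in 26.5% with the top 50% of the crypts list (28.6%). A villi H3K4me1 peak at the same start was found for 22.002% with the 1 kb counterpart and 48.2% with the most upstream start (45.1%), and H3K27me3 for 4.20% with the top 50% of the crypts list (7.24%). The upstream share (57.4%) was 53.4% with the 1 kb counterpart and 51.6% with the top 50% of the crypts list. CpG-rich starts (67.1%) were 69.0% with the top 50% of the crypts list, 69.9% with the most upstream start and 45.7% by the stricter definition. The cause of these shifts was not tested. The other 27 of 52 alternatives kept the value within its interval or, for a count, within 1.5-fold. No paired analysis was possible because the labels give no replicate numbers and there was 1 library per group, so no replicate could be left out. Depth is unknown from the lists, and a peak just under the threshold in villi counts as absent.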

Other observations

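Genes of the Zfp series, zinc finger genes by their symbol, held a member in 92 of 385 cases (23.9%), beside 11.9% of all autosomal coding genes. Among those with H3K4me3 in crypts it was 91 of 327 (27.8%), beside 18.9% of all such genes. Solute carrier genes (Slc) held a member in 42 of 358 cases (11.7%) and Tmem genes in 33 of 235 (14.0%). With H3K4me3 in crypts these were 42 of 250 Slc genes and 29 of 173 Tmem genes (both 16.8%), beside 18.9%. Members were found at olfactory receptor genes (Olfr) in 6 of 1126 cases (0.533%), none of them with H3K4me3 in crypts. These families were chosen by symbol after the member list was seen and were not tested.

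Over the autosomes, the share of crypts promoter H3K4me1 peaks without a villi counterpart ranged from 12.1% on chromosome 19 (9.80 to 14.8%) to 18.3% on chromosome 13 (15.7 to 21.4%). Chromosome X, which the rule leaves out, stood apart with 106 of 177 peaks (59.9%, 52.5 to 66.8%), while 34 of 103 villi promoter peaks on X had no crypts counterpart (33.0%, 24.7 to 42.6%). The H3K4me1 lists held 706 peaks on X in crypts and 344 in villi, and the H3K4me3 lists 436 in each. A coding start of the other strand lay within 1 kb of 10.3% of the start sites of members, 10.4% of those of shared peaks and 7.64% of those of villi-only peaks. The TCF-like letters CTTTGAT were in the start window of 5 of the 24 start sites with H3K4me3 in crypts only (20.8%), a count too small for a reading, and in 1.81% of those with H3K4me3 in both compartments.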
